A study of Mus musculus with 12 samples.

Results

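Transcripts of 9 genes that build and cross-link the collagen matrix were followed in seminal vesicles of adult mice that had, or had not, received an estrogen as newborns. The genes were chosen by name from a list of 10 made of 6 small leucine-rich proteoglycans (Lum, Dcn, Bgn, Fmod, Ogn and Prelp) and 4 lysyl oxidases (Lox, Loxl1, Loxl2 and Loxl3). This list and the further gene lists used below were chosen with earlier results of these data known. Each gene was taken from the array probe set to which the platform annotation gave that symbol and no other. All 6 proteoglycans and 3 of the lysyl oxidases had 1 such probe set each, so 9 of the 30063 genes named on the array were measured. Loxl2 was not analysed here, because its only probe set carries several symbols. All 9 measured genes passed the filter on low values and were among the 20102 genes tested.

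The seminal vesicles were collected at week 10 from male C57BL/6 mice in 4 groups of 3 arrays, 12 in all. The aERKO_DES group lacked estrogen receptor alpha, the receptor encoded by Esr1, and had received diethylstilbestrol (DES), a synthetic estrogen, dissolved in corn oil at 2 µg per pup per day under the skin on days 1 to 5 after birth. The aERKO_vehicle group had the same genotype and was injected with corn oil alone. The WT_DES group was wild type and received DES on the same schedule, and the WT_vehicle group was wild type and received corn oil. The sources used here do not give the knockout allele or its construction. Whether the 3 samples of each group came from different animals is not in the labels. The p-values therefore reflect the spread among these samples alone, and that spread may be technical.

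Small leucine-rich proteoglycans are secreted proteins with a curved core of leucine-rich repeats, most of them carrying chondroitin, dermatan or keratan sulfate chains. They bind the surface of collagen fibrils as these assemble and control fibril diameter and spacing, and decorin and biglycan also bind growth factors such as transforming growth factor beta (TGF-beta). Lysyl oxidases are secreted copper enzymes that oxidize lysine side chains of collagen and elastin to aldehydes, from which the covalent cross-links of fibrils and elastic fibres form. In the seminal vesicle such matrix lies in the lamina propria beneath the secretory epithelium and in the smooth muscle wall.

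Values are deposited log2 expression per probe set, so a difference of 1 is a 2-fold difference. Array medians lay between 5.95 and 6.14, and probe sets made to measure background averaged 5.1966. Across genes, the correlation within groups was 0.9898 to 0.9971, and the 9 arrays outside WT_DES correlated with arrays of other groups among those 9 at 0.9907 to 0.9976. WT_DES arrays correlated with the other 9 at 0.9487 to 0.9688. Esr1, the targeted gene, was at 6.81, 6.99 and 6.9 in aERKO_DES and 7.01, 7.09 and 6.88 in aERKO_vehicle, against 7.74, 7.68 and 7.55 in WT_DES and 7.8, 7.66 and 7.8 in WT_vehicle. Every aERKO array was below every WT array, with a difference of -0.76 for aERKO_DES against WT_DES (limma, adjusted p = 1.06e-05) and the same -0.76 for aERKO_vehicle against WT_vehicle (adjusted p = 0.00587). The 9 secretory protein markers of the seminal vesicle were all above background in WT_DES and WT_vehicle.

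The sequence just upstream of a transcription start was available for 4 of the 9 genes in RefSeq (build GRCm38.p6). It is shown because 3 of them (Bgn, Ogn and Prelp) were higher after DES in wild type and 1 (Fmod) was lower. Each window covers the 250 bases before a start, written 5′ to 3′ on the gene's strand. For Prelp the window lies inside the bounds of the gene (133910304 to 133930102). It is therefore not upstream of the whole gene. The windows are chrX:73483351-73483600 on the plus strand for Bgn, chr13:49607765-49608014 on the plus strand for Ogn, chr1:133921402-133921651 on the minus strand for Prelp and chr1:134037004-134037253 on the plus strand for Fmod. Capitals mark matches to 4 motifs, each searched on both strands. The first was the TATA box, written TATAAA, and the second the GC box, written GGGCGG. The third was the AP-1 site, written TGANTCA. The last was the full estrogen response element, which is a palindrome of GGTCA and its reverse complement with 3 free bases between them.
Bgn: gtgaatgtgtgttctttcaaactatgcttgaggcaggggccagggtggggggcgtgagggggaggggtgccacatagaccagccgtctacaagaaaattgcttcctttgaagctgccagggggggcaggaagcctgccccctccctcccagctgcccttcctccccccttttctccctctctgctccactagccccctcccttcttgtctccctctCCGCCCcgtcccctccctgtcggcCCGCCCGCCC
Ogn: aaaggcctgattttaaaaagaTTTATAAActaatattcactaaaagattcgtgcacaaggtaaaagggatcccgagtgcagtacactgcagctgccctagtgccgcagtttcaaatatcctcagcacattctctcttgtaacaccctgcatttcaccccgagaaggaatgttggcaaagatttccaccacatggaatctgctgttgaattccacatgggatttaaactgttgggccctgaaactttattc
Prelp: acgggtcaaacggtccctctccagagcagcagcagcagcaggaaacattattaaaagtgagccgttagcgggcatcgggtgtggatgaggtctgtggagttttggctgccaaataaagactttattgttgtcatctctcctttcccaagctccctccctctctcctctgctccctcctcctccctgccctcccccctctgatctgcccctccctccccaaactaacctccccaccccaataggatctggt
Fmod: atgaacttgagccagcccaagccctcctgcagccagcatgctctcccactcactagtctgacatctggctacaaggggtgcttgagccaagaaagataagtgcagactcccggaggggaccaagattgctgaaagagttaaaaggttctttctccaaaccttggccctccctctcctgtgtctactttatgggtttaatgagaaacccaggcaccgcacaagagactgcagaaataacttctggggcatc
The Bgn window held 3 GC boxes on the opposite strand, 2 of them overlapping, and the Ogn window 2 overlapping TATA boxes, 1 on each strand. No other match to the 4 motifs was found in these windows. Of 32851 windows of the same length, 32.7% held a GC box, 12.4% a TATA box, 6.75% an AP-1 site and 0.0639% a full estrogen response element. GC content was 64.4% for Bgn, 55.6% for Prelp, 51.2% for Fmod and 42.0% for Ogn, and the median over all windows was 52.4%.

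In wild-type mice, 8 of the 9 genes were higher in WT_DES than in WT_vehicle and Fmod was lower. Of all genes tested, 20.7% were called higher and 23.3% lower in this comparison, at an adjusted p below 0.05. The median difference of the 9 genes was 0.88, against -0.05 for all genes, and 4 of the 9 (Lum, Dcn, Lox and Loxl1) were at least 2-fold higher, against 4.59% of all genes. For each of the 9 the WT_DES and WT_vehicle arrays did not overlap, which was so for 60.9% of all genes tested. Because the 9 genes were chosen with earlier results known, their counts beside these shares are descriptions and not a test. These arrays measure a whole tissue, in which a change in the number of cells of a type and a change in RNA per cell cannot be told apart. This holds for rises and falls alike.

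The proteoglycan with the largest difference was Lum, which encodes lumican, a keratan sulfate proteoglycan best known for keeping the collagen of the cornea regularly spaced. It was at 10.41, 11 and 10.3 in WT_DES, against 7.41, 6.81 and 7.07 in WT_vehicle. Every WT_DES array was far above every WT_vehicle array, and the means were 10.57 ± 0.377 and 7.1 ± 0.299 (SD, n = 3 each). The difference was 3.47 ± 0.19 (SE), an 11.1-fold change with a 95% confidence interval of 3.07 to 3.88 on the log2 scale (adjusted p = 2.08e-08). It ranked 144 among the 20102 genes by signed difference, counted from the largest increase.

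Dcn, encoding decorin, which carries 1 chondroitin or dermatan sulfate chain and binds collagen fibrils and TGF-beta, was at 12.21, 12.49 and 11.95 in WT_DES, against 10.55, 10.05 and 10.16 in WT_vehicle. The lowest WT_DES array was above the highest WT_vehicle array by more than the range of either group. The difference was 1.96 ± 0.14, or 3.9-fold (adjusted p = 4.22e-07). Bgn, encoding biglycan, a close relative of decorin that also acts as a ligand of innate immune receptors when released from matrix, was at 11.51, 11.85 and 11.46 in WT_DES, against 10.88, 10.72 and 10.84 in WT_vehicle. Its groups were also apart, with a smaller difference of 0.8 ± 0.12, or 1.74-fold (adjusted p = 0.000194).

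Ogn and Prelp rose by less than 2-fold. Ogn, encoding osteoglycin (mimecan), was at 10.37, 10.46 and 10.08 in WT_DES, against 9.52, 9.37 and 9.41 in WT_vehicle, a difference of 0.88 ± 0.13 or 1.83-fold (adjusted p = 0.00023). Prelp, whose protein has a basic heparin-binding end and anchors basement membranes to the collagen beneath, was at 10.18, 10.54 and 10.1 in WT_DES, against 9.81, 9.36 and 9.68 in WT_vehicle, a difference of 0.66 ± 0.13 or 1.58-fold (adjusted p = 0.00181).

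Fmod, encoding fibromodulin, which shares a binding site on collagen I with lumican, was the 1 gene that fell. It was at 8.5, 8.23 and 8.26 in WT_DES, against 8.62, 8.6 and 8.7 in WT_vehicle. The groups were apart by a narrow margin, and the difference was -0.31 ± 0.1, or 1.24-fold lower (adjusted p = 0.0204). The call was lost without WT_DES replicate 2 (adjusted p = 0.0785), without WT_DES replicate 3 (0.0552) and without WT_vehicle replicate 3 (0.0715). It also depended on the scaling of the arrays, since with all arrays shifted to equal hybridization controls the difference was 0.05 (adjusted p = 0.812). That shift, which rests on 4 control probe sets, moved the median of all genes to 0.31, and relative to all genes Fmod was then at -0.26.

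Among the lysyl oxidases, Lox and Loxl1 rose several-fold. Lox, the founding enzyme of the family, which acts on collagen and elastin, was at 9.03, 9.66 and 8.82 in WT_DES, against 7.24, 7.16 and 7.38 in WT_vehicle, a difference of 1.91 ± 0.17 or 3.76-fold (adjusted p = 2.36e-06). Loxl1, known from knockout mice to be needed for elastic fibre renewal, was at 8.92, 9.43 and 8.77 in WT_DES, against 7.55, 7.37 and 7.45 in WT_vehicle, a difference of 1.58 ± 0.13 or 3.0-fold (adjusted p = 1.62e-06). In both genes every WT_DES array stood above every WT_vehicle array by more than 1 log2 unit. Loxl3, a relative with a scavenger receptor region that is needed for palate and spine development in mice, was at 7.51, 7.64 and 7.59 in WT_DES, against 7.3, 7.42 and 7.42 in WT_vehicle. Its difference of 0.2 ± 0.07, or 1.15-fold, passed the test (adjusted p = 0.028), but not with arrays shifted to the same median (0.13, adjusted p = 0.112) or without WT_vehicle replicate 1 (0.16, adjusted p = 0.118). The call was also lost without WT_DES replicate 2 (0.17) and without WT_DES replicate 3 (0.19).

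**Figure D1:**
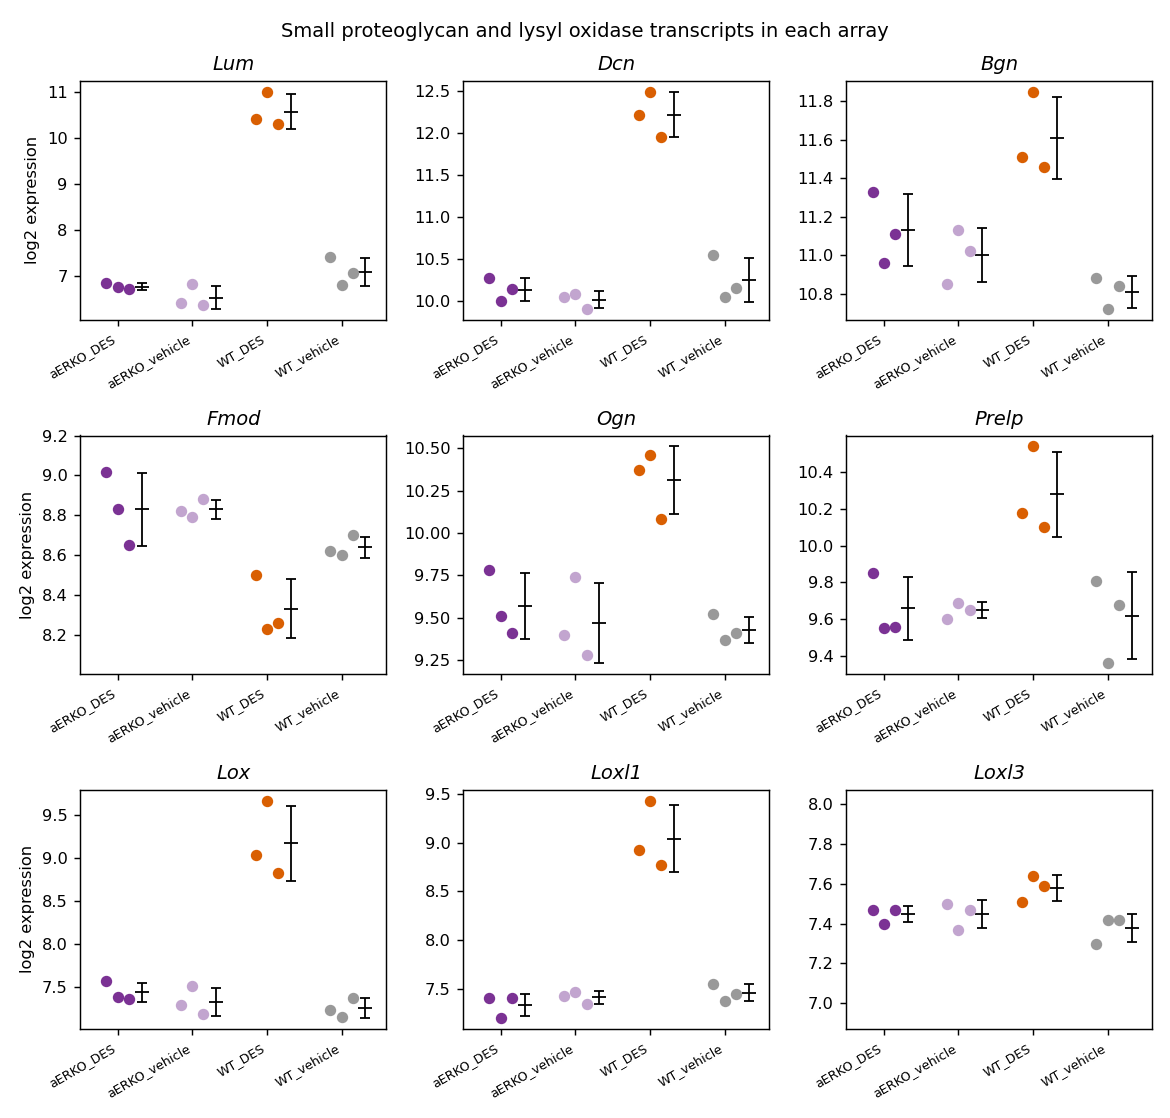
Deposited log2 expression (vertical axis) of the 9 genes in each array, by group from aERKO_DES to WT_vehicle, with points for arrays and bars for the mean and SD of 3 arrays. The WT_DES arrays of Lum lie between 10.3 and 11 and all other arrays of that gene at or below 7.41, whereas the WT_DES arrays of Fmod are the lowest of its 12.

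The 3 WT_DES arrays kept nearly the same order across the genes. WT_DES replicate 2 was the highest of the 3 for 8 of the 9 genes and the lowest for Fmod, and WT_DES replicate 3 was the lowest for 7. In aERKO_DES, replicate 1 was the highest for all 9 genes, so the 9 genes do not vary independently between the arrays of a group.

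The differences were not in one proportion. Ratios between probe sets of the same array, which a common scaling of the array cannot change, were compared as differences between groups, and only as descriptions, since these pairs were chosen after the values were seen. The ratio of Lum to Dcn was higher by 1.51 log2 units in WT_DES over WT_vehicle and by 0.11 in aERKO_DES over aERKO_vehicle. The ratio of Dcn to Bgn differed by 1.16 in wild type, that of Prelp to Fmod by 0.97 and that of Lum to Fmod by 3.78, and in each of these the WT_DES arrays did not overlap the WT_vehicle arrays. Among the enzymes the ratio of Lox to Loxl1 differed by 0.33 in wild type and by 0.19 in aERKO_DES over aERKO_vehicle, and that of Loxl1 to Loxl3 by 1.39 in wild type and -0.08 in aERKO. The other 3 ratios differed by 0.0 (Dcn to Bgn, and Prelp to Fmod) and 0.23 (Lum to Fmod) in aERKO.

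The same was done against the major fibrillar collagens, as the mean log2 value of Col1a1, Col1a2 and Col3a1, which encode the chains of collagens I and III. In WT_DES over WT_vehicle, the ratio to these collagens was higher by 1.92 log2 units for Lum, 0.42 for Dcn, 0.36 for Lox and 0.04 for Loxl1. Bgn differed by -0.75 relative to them, Ogn by -0.67, Prelp by -0.89, Loxl3 by -1.35 and Fmod by -1.86. So 3 of the proteoglycans that rose in the tissue (Bgn, Ogn and Prelp) had smaller differences than the mean of the collagen I and III chains. The WT_DES and WT_vehicle arrays overlapped in this ratio for Lox and for Loxl1. In aERKO_DES over aERKO_vehicle the 9 ratios differed by -0.23 to 0.08.

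**Figure D2:**
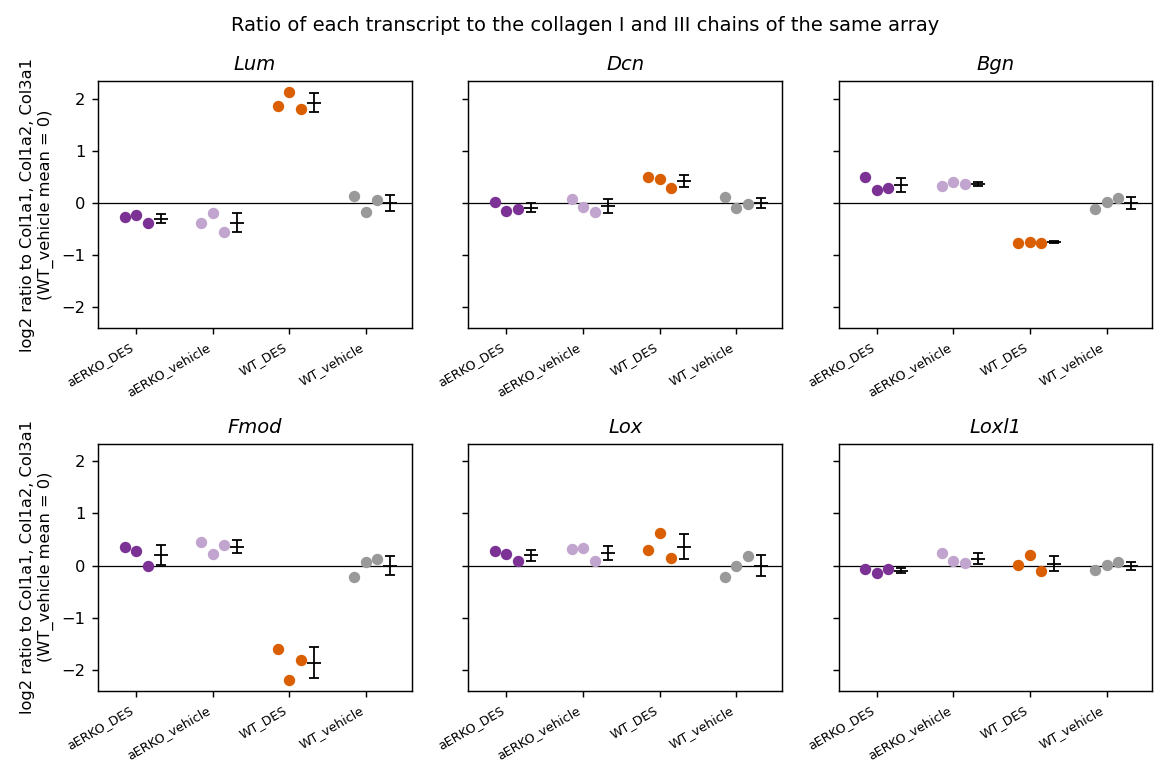
Log2 ratio of 6 transcripts to the mean of Col1a1, Col1a2 and Col3a1 on the same array (vertical axis), set to 0 at the mean of WT_vehicle, with points for arrays and bars for the mean and SD of 3 arrays, in groups from aERKO_DES to WT_vehicle. In WT_DES the ratio is higher by 1.92 for Lum and 0.42 for Dcn and differs by -0.75 for Bgn and -1.86 for Fmod, with Loxl1 near 0.

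In mice without estrogen receptor alpha, none of the 9 genes passed the test between aERKO_DES and aERKO_vehicle. The percentage of all genes called was 0.0% in this comparison, and 264 of 20102 genes (1.31%) and 0 of the 9 had an unadjusted p below 0.05 in limma. Lum was at 6.86, 6.77 and 6.73 in aERKO_DES, against 6.43, 6.83 and 6.38 in aERKO_vehicle. These groups overlapped, and the difference was 0.24 with a 95% confidence interval of -0.17 to 0.64 (adjusted p = 0.999). Dcn was at 10.28, 10.0 and 10.15 in aERKO_DES, against 10.05, 10.09 and 9.91 in aERKO_vehicle, a difference of 0.13 (-0.19 to 0.44). Lox was at 7.57, 7.39 and 7.36 in aERKO_DES, against 7.29, 7.51 and 7.19 in aERKO_vehicle, a difference of 0.11 (-0.26 to 0.48).

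The groups of aERKO mice overlapped for all 9 genes, whereas 6.11% of all genes did not overlap. Loxl1 was at 7.4, 7.2 and 7.4 in aERKO_DES, against 7.42, 7.47 and 7.34 in aERKO_vehicle, a difference of -0.08 (-0.37 to 0.22). Bgn differed by 0.13 (-0.13 to 0.39), Ogn by 0.09 (-0.2 to 0.38) and Prelp by 0.01 (-0.28 to 0.3). Fmod differed by 0.0 (-0.2 to 0.21) and Loxl3 by 0.0 (-0.14 to 0.14). For 7 genes (Lum, Dcn, Bgn, Ogn, Prelp, Lox and Loxl1) the upper limit in aERKO was below the lower limit in wild type.

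The difference between the 2 responses, aERKO minus WT, was tested in the same fit. It passed for 7 of the 9 genes, all with a smaller response in aERKO, where 14.1% of all genes were called lower and 9.16% higher. For Lum it was -3.23 ± 0.26 (SE), with a 95% confidence interval of -3.81 to -2.66 (adjusted p = 2.55e-06). It was -1.84 ± 0.2 for Dcn (adjusted p = 4.09e-05), -1.8 ± 0.24 for Lox (0.000178) and -1.66 ± 0.19 for Loxl1 (5.21e-05). The genes with smaller responses in wild type differed by less, with -0.78 for Ogn (adjusted p = 0.0107), -0.67 for Bgn (0.0132) and -0.65 for Prelp (0.0261). After quantile normalization the calls of Bgn (-0.43, adjusted p = 0.052) and Prelp (-0.44, 0.0716) were lost. Prelp also lost its call in 5 of the 12 fits that left out 1 array (without aERKO_DES replicate 2 or 3, aERKO_vehicle replicate 2, WT_DES replicate 2 or WT_vehicle replicate 2). The difference did not pass for Fmod (0.31 ± 0.14, adjusted p = 0.107) or for Loxl3 (-0.19 ± 0.09, adjusted p = 0.137), so for these genes the responses of the genotypes were not shown to differ.

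**Figure D3:**
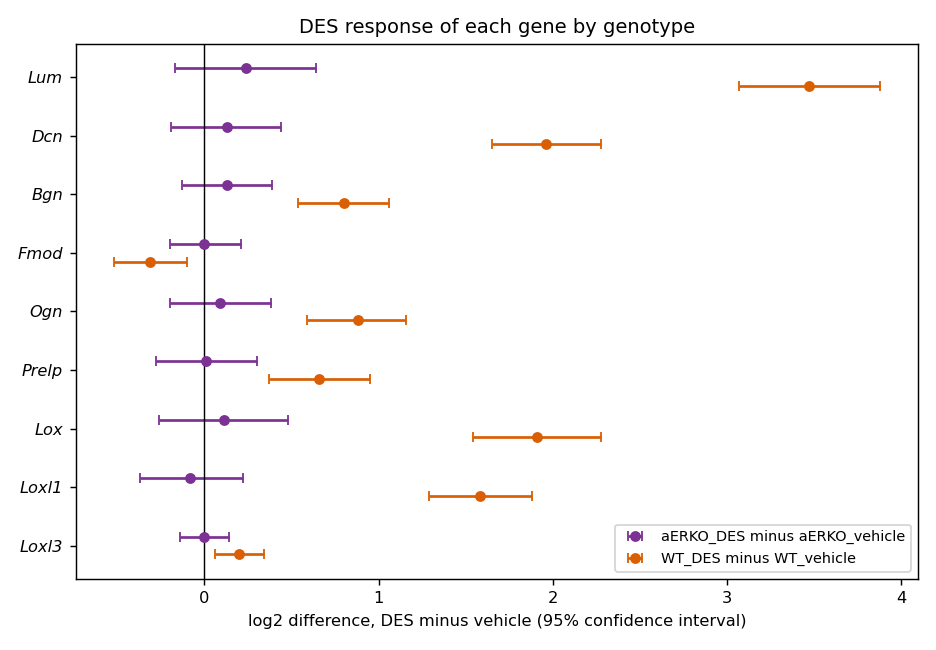
Log2 difference of DES minus vehicle (horizontal axis) with its 95% confidence interval for each gene, in aERKO (upper point of each row) and in WT (lower point). All intervals in aERKO include 0, and those in WT lie above 0 except for Fmod, which lies below 0.

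Given vehicle, the 2 genotypes were not told apart at any of the 9 genes in limma. Of all genes 0.0249% (5 genes) were called in this comparison and 864 (4.3%) had an unadjusted p below 0.05, among them Lum alone of the 9. Lum was at 6.43, 6.83 and 6.38 in aERKO_vehicle, against 7.41, 6.81 and 7.07 in WT_vehicle, and the highest aERKO_vehicle array was level with the lowest WT_vehicle array. The difference was -0.55 ± 0.19 (unadjusted p = 0.0112, adjusted p = 0.914). Fmod was at 8.82, 8.79 and 8.88 in aERKO_vehicle, against 8.62, 8.6 and 8.7 in WT_vehicle, and was the 1 gene whose groups did not overlap in this comparison (12.2% of all genes did not), with a difference of 0.19 (adjusted p = 1.0). The other genes differed by -0.24 (Dcn) to 0.19 (Bgn).

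Given DES, 7 of the 9 genes were lower and Fmod was higher in aERKO_DES than in WT_DES, where 24.6% of all genes were called lower and 27.5% higher. This comparison uses the same WT_DES arrays as the DES comparison in wild type, so the values stand beside those above and are not separate evidence. Lum differed by -3.79, or 13.8-fold (adjusted p = 8.59e-09), Dcn by -2.07 (2.52e-07), Lox by -1.73 (5.7e-06) and Loxl1 by -1.7 (7.68e-07). Ogn differed by -0.74 (adjusted p = 0.000775), Prelp by -0.62 (0.00257), Bgn by -0.48 (0.00607) and Fmod by 0.5 (0.00116). Loxl3 did not pass (-0.13, adjusted p = 0.108). With arrays shifted to the hybridization controls Fmod no longer passed (0.28, adjusted p = 0.147), and after quantile normalization neither did Bgn (-0.22, adjusted p = 0.107).

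Genes that act on, or with, these 9 were read from 8 lists of 118 further genes, 104 of them tested. In wild type 52 were higher and 14 lower after DES, with a median difference of 0.22 against -0.05 for all genes. The share of all genes, 20.7% higher and 23.3% lower, is also the background of each list below. In aERKO none was called, and their differences lay between -0.16 and 0.33. The difference of responses (aERKO minus WT) passed for 41 of the 104 as a smaller and for 7 as a larger value in aERKO, where 14.1% and 9.16% of all genes were called in these directions. Given vehicle none of the 104 differed by genotype at the threshold.

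The collagen partners of the proteoglycans split. Of 11 fibrillar collagen chains, 4 rose in WT_DES, namely Col3a1 (1.82), Col1a2 (1.49) and Col1a1 (1.34), the chains of collagens III and I, and Col5a2 (0.82), a chain of collagen V, which starts fibrils. A further 2 fell, Col11a2 (-0.36) and Col27a1 (-0.26), which are mainly cartilage collagens and were named here after their values were seen. The list's median was -0.1. With arrays shifted to the hybridization controls 5 were higher and 0 lower, and with arrays shifted to the same median 4 were higher and 4 lower.

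Of 23 enzymes and chaperones of procollagen, 11 rose and 3 fell (median 0.17). Those with the largest differences were Plod2 (1.08), which hydroxylates the telopeptide lysines that lysyl oxidases then oxidize, Bmp1 (0.88), the proteinase that trims procollagen and activates Lox, Serpinh1 (0.57), the collagen chaperone, and P4ha1 (0.49), a prolyl hydroxylase subunit. The 3 that fell, named after their values were seen, were P4hb (-0.43), P3h4 (-0.43) and P4ha3 (-0.28). With the hybridization controls the split was 13 higher and 0 lower, with equal medians 10 and 7.

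Elastic fibre proteins, among them elastin, the other substrate of lysyl oxidases, rose for 8 of 11 and fell for 0 (median 0.41). Mfap5 (1.86), Fbln1 (1.58), Mfap4 (0.81) and Eln (0.52), which encodes elastin itself, differed most. Mfap5 also stood on the list of fibroblast markers described below.

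Among 23 enzymes that build or sulfate the glycosaminoglycan chains, 10 rose and 4 fell (median 0.04). Dse (1.22), the epimerase that turns chondroitin into dermatan sulfate, Chsy1 (1.06), a chondroitin chain polymerase, and Chst11 (0.98), a chondroitin sulfotransferase, were higher. B4galt4 (-0.9), a galactosyltransferase of keratan sulfate synthesis, was lower, as were B3gnt7 (-0.78), which extends keratan sulfate chains, B3galt6 (-0.41), which builds the linker of chondroitin and heparan sulfate chains, and Chpf (-0.23), a chondroitin polymerizing factor, all 3 named after their values were seen. With the hybridization controls the split was 13 higher and 2 lower, with equal medians 9 and 9. Of 6 large proteoglycans, Hspg2 (0.56), Vcan (0.51) and Agrn (0.44), encoding perlecan, versican and agrin, rose and Bcan (-0.4), encoding brevican, fell (median 0.14), the last not with the hybridization controls (-0.04).

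Of the other small leucine-rich proteoglycans and Loxl4, 5 of 9 tested were not called, 1 rose (Ecm2, 1.12) and 3 fell (Nyx, -0.73, Optc, -0.33, and Loxl4, -0.18), with a median of -0.07. Ecm2 averaged 5.66 in aERKO_DES, 5.67 in aERKO_vehicle and 5.86 in WT_vehicle, below the lowest array median (5.95), and 6.98 in WT_DES. The filter on low values kept Ecm2 through the WT_DES arrays, so its rise is not support. With the hybridization controls the split was 4 higher and 1 lower, and Optc (0.02) and Loxl4 (0.18) then had the other sign and did not pass.

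TGF-beta ligands, receptors and latency proteins rose for 7 of 11 and fell for 0 (median 0.71). The largest differences were in Tgfbr2 (1.34), the type II receptor, Lrrc32 (1.31) and Nrros (1.02), which hold latent TGF-beta on the surface of platelets and regulatory T cells and of macrophages and microglia, and Tgfb1 (0.85). Of 10 receptors known to bind small proteoglycans, 8 rose and 1 fell (median 0.87). Itga2 (3.27), a subunit of a collagen receptor that binds decorin, Cd44 (2.72), the hyaluronan receptor, Lrp1 (1.39), an endocytic receptor of decorin, and Egfr (1.04), a decorin receptor, had the largest differences. The receptor that fell was Igf1r (-0.5), named after its value was seen. With equal medians the splits were 7 higher and 1 lower for the TGF-beta list and 8 and 2 for the receptors, and with the hybridization controls 9 and 0, and 8 and 0.

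**Figure D4:**
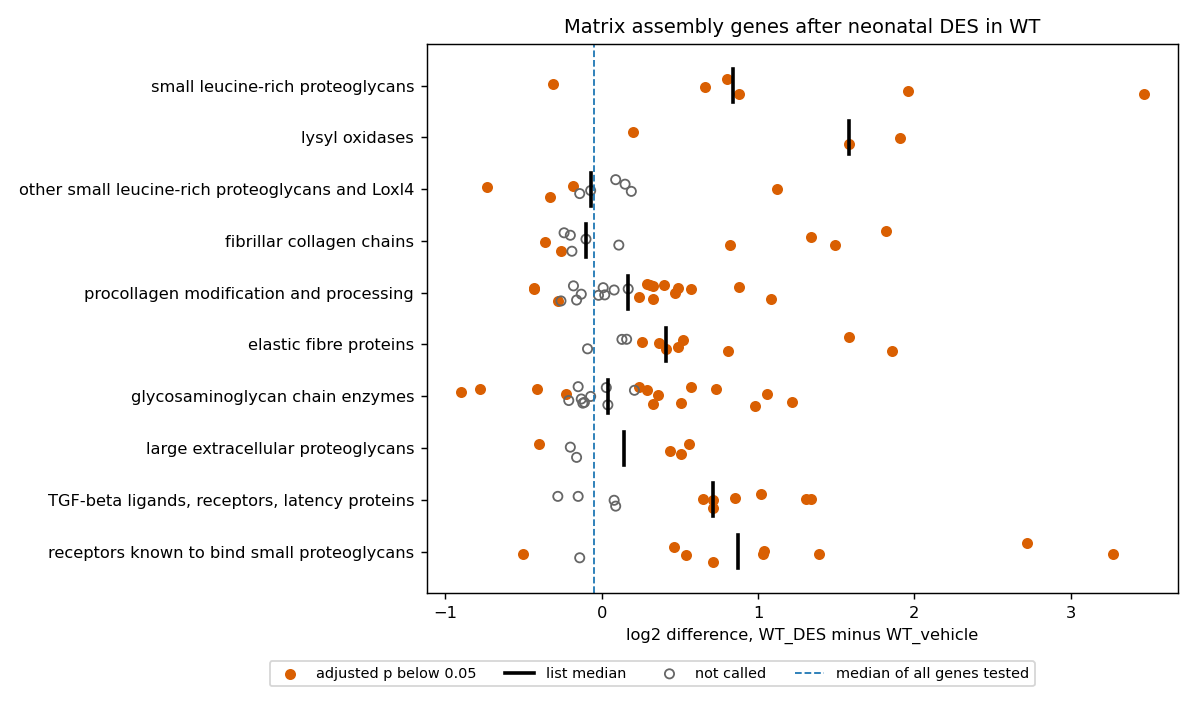
Log2 difference of WT_DES minus WT_vehicle (horizontal axis) for each tested gene of 10 lists, with filled points for genes called at an adjusted p below 0.05, open points for genes not called, a bar at each list's median and a dashed line at the median of all genes (-0.05). The medians run from -0.1 for fibrillar collagen chains to 1.58 for the lysyl oxidases, and the receptor list reaches 3.27 (Itga2).

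Markers of several cell types moved with the 9 genes, and their part in these results was not tested. Fibroblast markers rose for 7 of 8 and fell for 0 in WT_DES (median 0.93), with Mfap5 (1.86) and Dpt (1.72) the largest. The summed linear level of the 9 fibroblast markers was 4540 to 6760 in WT_DES, against 2210 to 2500 in WT_vehicle, and 2070 to 2230 in aERKO_DES, against 1970 to 2110 in aERKO_vehicle. None of the 9 was below background in WT_DES, and 1 (Fap) was in WT_vehicle. Their sum was highest in WT_DES replicate 2 (6760), the array in which 8 of the 9 matrix genes were highest, and lowest in WT_DES replicate 3 (4540). This order was not particular to fibroblasts. Macrophage, neutrophil, B and plasma cell, T cell, endothelial, Schwann cell, luminal and basal sums were also highest in WT_DES replicate 2. Smooth muscle, adipocyte and secretory sums were highest in WT_DES replicate 1.

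Macrophage markers rose for 10 of 10 (median 2.32), with Lyz2 (4.13) the largest, and summed to 14200 to 19600 in WT_DES, against 1750 to 2200 in WT_vehicle. Neutrophil markers rose for 8 of 9 (median 2.08) and summed to 4960 to 7930 in WT_DES, against 581 to 593 in WT_vehicle, where S100a8 and Retnlg were below background. B and plasma cell markers rose for 6 of 7 (median 1.54), T cell markers for 6 of 7 (median 1.0) and endothelial markers for 8 of 8 (median 0.66), and none of the 3 lists had a marker that fell. The endothelial sum was 2220 to 2790 in WT_DES, against 1330 to 1520 in WT_vehicle. In each of these 5 lists the sums in WT_DES did not overlap those in WT_vehicle. Outside WT_DES, S100a8, Retnlg, Ngp, Ms4a1, Jchain and Il7r averaged below the lowest array median (5.95) in every group. The filter on low values kept them through the WT_DES arrays, so their place among the rising markers follows from the filter and is not support. Ngp and Ms4a1 were named after their values were seen.

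Smooth muscle markers fell for 8 of 10 and rose for 0 (median -0.46, Actg2 -0.67), and their sum was 18500 to 21500 in WT_DES, against 24900 to 27300 in WT_vehicle. With arrays shifted to the hybridization controls no smooth muscle marker passed (Actg2 -0.32) and the list's median was -0.1. With equal medians 8 of the 10 were lower, and after quantile normalization 9 were. Basal epithelial markers rose for 8 of 8 (median 0.55) and luminal epithelial markers rose for 5 and fell for 2 of 9 (median 0.26). The luminal split was 6 and 0 with the hybridization controls, 4 and 2 with equal medians and 2 and 2 after quantile normalization. Seminal vesicle secretory genes fell for 5 of 9 and rose for 0 (median -0.24), with a sum of 104000 to 123000 in WT_DES, against 129000 to 135000 in WT_vehicle. Of these genes 1 fell with the hybridization controls, 7 with equal medians and 8 after quantile normalization. Adipocyte markers had 0 of 6 called after DES in wild type (median 0.0) and 0 of 6 in aERKO_vehicle against WT_vehicle (median -0.8). In aERKO_DES against WT_DES 4 of 6 were lower (median -0.91). The difference of responses passed for 0 of 6 (median -0.1), so a genotype difference particular to DES was not shown. The adipocyte sum was 675 to 820 in aERKO_DES and 737 to 841 in aERKO_vehicle, against 1360 to 1590 in WT_DES and 859 to 2230 in WT_vehicle. WT_vehicle replicate 1 was the highest of its group (2230), and it was also the highest of its group for 6 of the 9 matrix genes. The fibroblast, B and plasma cell, endothelial, Schwann cell and basal sums were also highest in that array. Those of smooth muscle, macrophage, T cell, luminal and secretory markers were not. Of the 2 Schwann cell markers tested Scn7a rose (1.89) and Sox10 was not called (-0.13), so their median of 0.88 describes neither. With equal medians or after quantile normalization 1 was higher and 1 lower. In aERKO none of the markers on the 12 lists was called after DES.

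The genes with the most similar profiles over the 12 arrays were found by the root mean square (RMS) difference of log2 values centred on each gene's mean. For Dcn the nearest was Col3a1, a collagen III chain, at 0.0919, followed by F13a1 and Ccl6, and 62 genes lay within 0.2. For Loxl1 they were Samhd1 at 0.0568, Matn2 and Aebp1 (260 genes within 0.2), and for Lox Anxa3 at 0.086, C3ar1 and Tnfsf13b (135 genes). Col3a1, Matn2 and Aebp1 encode matrix proteins, whereas F13a1, Ccl6, C3ar1 and Tnfsf13b are expressed by myeloid cells. Lum had no gene within 0.2, and its nearest were Ighm at 0.202, Lyz1 at 0.203 and Clca3a2 at 0.22.

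The genes with smaller responses had many close profiles. Bgn was nearest to Col12a1 at 0.0833, which encodes a fibril-associated collagen, then Eya1 and Epas1 (1195 genes within 0.2), Ogn to Rgs4 at 0.0572 (819 genes) and Prelp to Fads3 at 0.0767, then Tek and Tmtc1 (1835 genes). For Fmod, nearest to Ptgr1, 5913 genes lay within 0.2, and for Loxl3, nearest to Kctd10, 11704 genes did. A profile so common says little about a gene, and the 12 arrays share the separation of WT_DES from the other groups.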

How the data were processed

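RNA from seminal vesicles was measured on 12 Affymetrix arrays. Per the submitters' processing notes, the authors ran RMA in Affymetrix Expression Console, and the deposited table holds log2 values per probe set. The sources used here give no version. RMA equalizes arrays, so a broad change in RNA can shift other genes the opposite way. Arrays give no read depth, and their number limits the precision.

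Of 72688 probe sets, 30604 had 1 platform symbol, 2146 several and 39938 none. Symbols were updated for 1135 through the RefSeq genes, which gave 30063 genes. A gene with several probe sets (429) was taken from the brightest. Genes above the array median on at least 3 arrays were tested (20102, with 9961 removed).

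Limma 3.58.1 in R 4.3.3 was fitted with 1 mean per group over 12 arrays, 5 comparisons and two-sided tests, with Benjamini-Hochberg adjustment over all genes tested and a threshold of 0.05 (8 residual and 4.33 prior degrees of freedom). SE are limma's and SD are of 3 arrays. The script was tested on simulated data. All 9 measured members are named, up to 4 called genes with the largest differences of each gene list, up to 2 of each marker list, Esr1, and the 3 nearest profiles, and exceptions are marked. Not all are printed. The members and lists were chosen with earlier results of these data known. Alternatives changed the filter, probe set rule, moderation, weights, scaling, samples and replicate block, or left out 1 array. The main fit did not pair arrays by replicate number. Of 18 same-numbered pairs, 6 correlated above 0.1 in their deviations from the group means (-0.3555 to 0.5205). Different-numbered pairs ranged from -0.5652 to 0.5839. These values do not decide whether the numbers mark a pairing.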

Additional observations from a re-analysis of the deposited data

Results flagged for a closer look

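For the genes given here, the response to DES in aERKO differed from that in WT by a test of the difference itself (limma interaction term, aERKO minus WT, adjusted p below 0.05), with log2 differences in parentheses. Among the 9 genes these were Lum (-3.23), Dcn (-1.84), Bgn (-0.67), Ogn (-0.78), Prelp (-0.65), Lox (-1.8) and Loxl1 (-1.66). Each was higher in WT_DES than in WT_vehicle and was not called in aERKO. The calls of Bgn and Prelp were lost after quantile normalization, and that of Prelp also without some single arrays.

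Of the 104 other matrix genes tested, the difference passed for 41 as a smaller and 7 as a larger value in aERKO, against 14.1% and 9.16% of all genes. The rule names called genes with the largest differences in wild type, which are part of this difference, so a high count among the named genes follows from their choice (27 of 32). Collagen chains and their processing genes were Col3a1 (-1.65), Col1a2 (-1.33), Col1a1 (-1.21), Col5a2 (-0.76), Plod2 (-1.12), Bmp1 (-0.81) and Serpinh1 (-0.5). Elastic fibre genes were Mfap5 (-1.81), Fbln1 (-1.48) and Mfap4 (-0.72). Proteoglycans and chain enzymes with a smaller value in aERKO were Ecm2 (-1.13), Agrn (-0.44), Dse (-1.19), Chsy1 (-1.09) and Chst11 (-0.99), and those with a larger value were Nyx (0.64), Optc (0.45), Bcan (0.52) and B4galt4 (0.79). Ecm2 passed the filter on low values through the WT_DES arrays. TGF-beta genes were Tgfbr2 (-1.37), Lrrc32 (-1.31), Nrros (-0.95) and Tgfb1 (-0.84), and receptors were Itga2 (-3.1), Cd44 (-2.77), Lrp1 (-1.27) and Egfr (-1.1). Genes named after their values were seen were P3h4 (0.38), B3gnt7 (0.61) and Igf1r (0.5). Markers named in the text included Dpt (-1.61), Actg2 (0.8), Scn7a (-1.83), Ighm (-3.49), Tek (-0.76), Lyz2 (-3.85), S100a8 (-6.79) and Retnlg (-4.42). Of these, S100a8 and Retnlg were below background in WT_vehicle and passed the filter on low values through the WT_DES arrays.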

How the results depend on the processing

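Across 22 alternatives, 981 values of the 9 genes were recomputed over the 5 comparisons, and 957 kept their direction and their side of the threshold, where values called in neither fit count as kept (27 of them changed sign). In wild type Lum, Dcn, Bgn, Ogn, Prelp, Lox and Loxl1 kept their calls under every alternative run. Fmod and Loxl3 did not. With arrays shifted to the hybridization controls, which moved the median of all genes from -0.05 to 0.31 (8345 genes higher and 350 lower, against 4152 and 4677), Fmod reversed to 0.05, 0 members were lower, and Prelp (1.02) and Loxl3 (0.55) moved by over 1.5 times. With arrays shifted to the same median, 3404 genes were higher and 7115 lower, and after quantile normalization 3515 and 7142. Loxl3 did not pass with either (0.13 in both). Leaving out 1 array gave 0 to 1 members lower. In the difference of responses, Fmod was called under quantile normalization (0.44) and equal medians (0.39), so 1 member was higher, and also without aERKO_DES replicate 3 (0.41) or WT_DES replicate 1 (0.4), a range of 0 to 1. Bgn (-0.43) and Prelp (-0.44) did not pass after quantile normalization, and Loxl3 passed with array weights (-0.22), whose estimation stopped before its tolerance. Of all genes, 1841 were higher and 2838 lower there. These counts were 133 and 2806 after the shift to the hybridization controls, and 3834 and 2407 with equal medians. Given DES, 0 members were higher in aERKO with the hybridization controls, and Loxl3 passed with array weights (-0.12). The replicate number as a block left the members' differences as they were (Lum 3.47 in wild type), changed no call of a member and gave 4502 genes higher and 5486 lower in wild type. In aERKO after DES, and between genotypes given vehicle, no member was called under any alternative run. Values near background limit what can be seen of dim genes. The causes of these changes were not tested beyond the construction of each alternative.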

Other observations

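Chad, encoding chondroadherin, a small leucine-rich repeat protein of cartilage matrix, was outside the 9 genes and was chosen after its values were seen. It averaged 8.08 in aERKO_DES and 7.76 in aERKO_vehicle, against 7.05 in WT_DES and 7.12 in WT_vehicle. It was higher in aERKO_DES than in WT_DES by 1.03 ± 0.25 (SE, limma, adjusted p = 0.00561). The difference given vehicle was 0.64 ± 0.25 (adjusted p = 1.0), and those groups did not overlap, as for 12.2% of all genes. The difference of responses to DES (aERKO minus WT) did not pass in limma (0.4 ± 0.36, adjusted p = 0.421). A genotype difference of Chad particular to DES was therefore not shown.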
